A study of Mus musculus with 8 samples.

Results

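Mitochondrial ribosomal protein genes were taken as every gene of the count table whose symbol begins with Mrpl or Mrps followed by a digit. The rule found 77 of 14765 genes, 48 with an Mrpl symbol and 29 with an Mrps symbol, and it used no measured value. Mrpl53, which the symbol rule would also take from the annotation, was not analysed here. Poly(A) RNA from bulk tissue labelled PrL was sequenced from C57 mice, and PrL was read here as the prelimbic area of the medial prefrontal cortex. The 4 Sham libraries are the controls, and the 4 SNI libraries come from mice with what the abbreviation means in pain research, spared nerve injury, in which part of the sciatic nerve is cut and hypersensitivity lasts. No other allele or agent is named for either group, and age, sex and time after surgery are not given in the sources used here. Nor do they tell if 1 mouse or more went into a library, and the p-values therefore reflect variation among libraries only, which could be partly technical.

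Mitochondria keep a ribosome of their own, which translates the few proteins encoded in mitochondrial DNA, all of them subunits of the respiratory chain or ATP synthase. Its RNAs come from mitochondrial DNA, but every one of its proteins is encoded in the nucleus, made in the cytosol and imported. The particle has a large and a small subunit, and it descends from a bacterial ribosome, to which it has added many proteins of its own. Neurons rely heavily on oxidative phosphorylation, and inherited defects of several of these proteins cause disease of brain and heart.

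By their place in the structure, 50 of the 77 genes encode large-subunit proteins and 26 encode small-subunit proteins. Mrps30 and Mrps18a belong to the large subunit in spite of their symbols. The product of Mrps36 is now known as a subunit of the 2-oxoglutarate dehydrogenase complex and is no part of the ribosome, so it was kept as a member by symbol only. Of the 76 ribosomal proteins, 46 have a bacterial counterpart by their family name and 30 do not. Every one of the 77 genes passed the filter on low counts, with 75 to 1555 reads per gene and library. None of the 77 was therefore lost or gained in this filter through a group in which it was high. The smallest count in the whole table was 1, and whether genes were removed at an earlier step was not tested.

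The libraries held 14735602 to 19602487 counts, and reads of the 77 genes made up 0.255% to 0.294% of each. Markers of excitatory cortical neurons were present, with all 12 listed markers tested, and their summed level was 7915 to 8779 CPM (counts scaled to library size) in Sham and 5632 to 7550 in SNI, with 5 of 12 at a false discovery rate (FDR) of 0.05, all lower in SNI. Markers of striatal medium spiny neurons, a cell type of a neighbouring region, summed to 257 to 505 CPM in Sham and 381 to 908 in SNI, highest in SNI replicates 2 and 4. All 11 tested markers of this type had a log2 fold change (SNI minus Sham) above 0, from 0.48 to 1.91 with a median of 0.98. Of these, 6 had an unadjusted edgeR p under 0.05, as had 21.1% of all tested genes, and 0 of 11 passed the FDR of 0.05. Choroid plexus and ependyma markers summed to 7.57 to 9.64 CPM in Sham and 13.8 to 21.2 in SNI, and 3 of 5 tested were higher. Of 12 microglia markers tested, 2 were higher in SNI (Tmem119 and P2ry12) and 1 was lower. The lower one was Cx3cr1, a chemokine receptor gene of microglia, at 51.2 ± 4.47 against 1.93 ± 0.317 CPM (SD, n = 4 per group, Sham first; edgeR adjusted p = 2.41e-12), a difference for which the labels name no cause. What part these markers have in the results below was not tested. In tissue of mixed cells, fewer cells of a type and less RNA per cell cannot be told apart.

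Mitochondrial ribosomal protein transcripts had nearly the same levels in the SNI and Sham libraries. With edgeR's quasi-likelihood test over 13911 genes and an FDR of 0.05, 1 of 77 genes fell, Mrpl55, and 0 rose. Over all tested genes 2.87% were lower at that threshold and 2.15% were higher, 5.02% in either direction. The median log2 fold change (SNI minus Sham) over the 77 genes was -0.002, against 0.011 over all genes, with 37 values above 0 and 40 below. The quartiles of the members' log2 fold changes were -0.07 and 0.07, against -0.12 and 0.16 over all genes, and the extremes were -0.49 and 0.26. At an unadjusted p under 0.05 there were 2 genes with a higher and 6 with a lower SNI level, 10.4% of the members, where 21.1% of all genes stood past that level (10.3% higher and 10.7% lower). At an FDR of 0.1 the count of members was still 1 (9.19% of all genes), and at 0.01 it was 0 (1.11% of all genes). DESeq2 and limma voom also called Mrpl55 alone among the members. The 8 genes past the unadjusted level were Mrpl55, Mrpl4, Mrps9, Mrps2, Mrps12, Mrps15, Mrpl57 and Mrps36.

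The size of the differences was bounded by the replicates for nearly every member. The 95% interval of the log2 fold change lay wholly between -0.5 and 0.5 for 74 of 77 genes (96.1%), and for 63.4% of all tested genes. The 3 members with an interval reaching past those bounds were Mrpl55, Mrpl4 and Mrpl33. Within the narrower bounds of -0.25 and 0.25 lay the intervals of 26 members (33.8%), compared with 16.2% of all genes. The median size of a member's log2 fold change, regardless of sign, was 0.071, and 0.139 over all genes. Spread between replicates was also smaller in the members, with a median coefficient of variation within a group of 8.9% against 11.3%. The members' median level, 36.0 CPM, stood above the 26.2 CPM of all genes, and a higher count by itself lowers counting error. How much of the narrower spread goes with level was not tested.

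**Figure D1:**
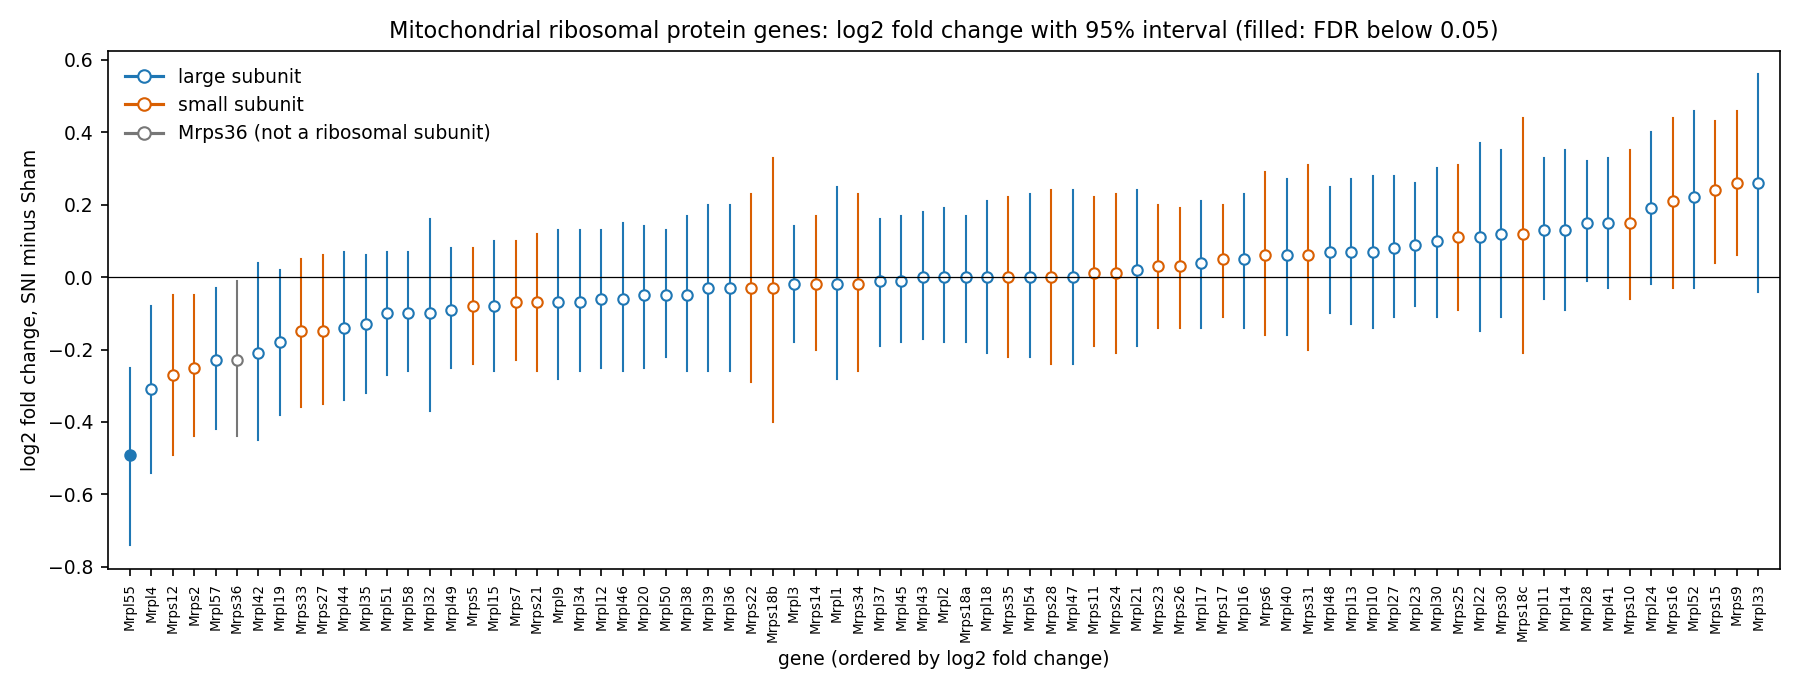
Log2 fold change (SNI minus Sham) of the 77 mitochondrial ribosomal protein genes, ordered by value, with 95% intervals; colour gives the subunit and a filled point an FDR below 0.05. Only Mrpl55, at -0.49, is filled, and the other 76 points lie between -0.31 and 0.26.

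Mrpl55 was the one member past the threshold. It encodes bL31m, a large-subunit protein of the bacterial L31 family, and lies on the plus strand of GRCm38 at chr11:59202486-59206134, with no annotated exon of another gene overlapping its own. Its level was 30.9, 26.1, 26.7 and 24.1 CPM in Sham replicates 1 to 4 and 16.4, 21.1, 17.3 and 21.8 CPM in SNI replicates 1 to 4. All 4 SNI values were below all 4 Sham values, with a gap between the lowest Sham and the highest SNI library that was smaller than either group's range. The mean fell 1.41-fold, from 27.0 ± 2.86 to 19.1 ± 2.69 CPM (SD, n = 4 per group). On the log2 scale this is -0.49 ± 0.116 (SE), with a 95% interval of -0.74 to -0.25. The edgeR adjusted p was 0.0255. The call rested on single libraries: the edgeR adjusted p was 0.0775 without Sham replicate 1, 0.0704 when Sham replicate 3 was left out and 0.0883 when SNI replicate 3 was. The log2 fold change stayed between -0.56 and -0.42 whichever library was left out.

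Among the SNI libraries, Mrpl55 was higher in replicates 2 and 4, which also had the most striatal marker signal. Without those libraries its log2 fold change was -0.68 (edgeR adjusted p = 0.0149), and with the striatal marker value as a covariate it was -0.74 (edgeR adjusted p = 0.0488). Since those libraries held the highest SNI values of Mrpl55, leaving them out was bound to make its fold change more negative. What part striatal tissue has in the level of Mrpl55 was not tested. Without SNI replicates 2 and 3, the lowest in excitatory markers, the log2 fold change was -0.50 and the edgeR adjusted p 0.101.

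A further 5 members with lower SNI means had an unadjusted p under 0.05 and did not pass the adjusted threshold. Mrpl4, the large-subunit protein uL4m, was at 59.8, 49.1, 46.8 and 43.2 CPM in Sham and at 40.0, 36.6, 37.3 and 46.5 CPM in SNI. SNI replicate 4 lay inside the Sham range, and the log2 fold change was -0.31 ± 0.107 (SE, edgeR adjusted p = 0.109). Mrps2, a small-subunit protein (uS2m), was at 33.3, 33.5, 31.0 and 29.3 CPM in Sham and 25.2, 27.5, 24.8 and 29.5 CPM in SNI. Its groups met only at SNI replicate 4, and the log2 fold change was -0.25 ± 0.092 (SE, edgeR adjusted p = 0.135).

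Mrps12 encodes uS12m, which lines the decoding centre where codon and anticodon pair. Its Sham values were 45.0, 44.5, 45.2 and 41.5 CPM and its SNI values 38.8, 28.7, 37.1 and 41.6 CPM. SNI replicate 2 was the lowest library by a wide margin and SNI replicate 4 overlapped Sham, so the SNI spread (SD 5.54 CPM) exceeded that of Sham (SD 1.75 CPM). The log2 fold change was -0.27 ± 0.104 (SE, edgeR adjusted p = 0.146). Mrpl57 (mL63), a large-subunit protein without a bacterial counterpart, stood at 49.7, 43.9, 42.7 and 46.1 CPM in Sham against 44.0, 40.8, 36.8 and 34.3 CPM in SNI. One SNI library overlapped Sham, and the log2 fold change was -0.23 (edgeR adjusted p = 0.173). Mrps36, the dehydrogenase subunit, was at 28.4, 25.9, 23.7 and 24.6 CPM in Sham and 22.2, 24.7, 21.0 and 19.6 CPM in SNI, with -0.23 on the log2 scale (edgeR adjusted p = 0.216). The annotation names 3 pseudogenes of Mrps36, whose reads could be exchanged with it.

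On the other side, Mrps9 and Mrps15 had the smallest p-values among members with a higher SNI mean, and neither passed. Mrps9 (uS9m), a small-subunit protein, was at 34.0, 34.3, 29.1 and 33.6 CPM in Sham and 40.6, 42.5, 40.3 and 33.6 CPM in SNI. SNI replicates 1 to 3 were above every Sham library and replicate 4 was among them, with a log2 fold change of 0.26 ± 0.095 (SE, edgeR adjusted p = 0.125). Mrps15 (uS15m), also of the small subunit, was at 33.7, 33.1, 29.2 and 27.9 CPM in Sham and 35.8, 34.9, 40.2 and 35.1 CPM in SNI. Its groups did not overlap, with a log2 fold change of 0.24 ± 0.093 (SE) that did not pass after adjustment over all genes (edgeR adjusted p = 0.154). Groups that do not overlap were found for 2 members, Mrpl55 (lower) and Mrps15 (higher), or 2.6%, against 12.7% of all tested genes (5.64% higher, 7.02% lower).

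Behind them came Mrpl28, Mrpl24, Mrpl52, Mrps16, Mrpl33 and Mrpl41, with log2 fold changes of 0.15 to 0.26 and edgeR adjusted p-values of 0.269 to 0.326. Of these, Mrpl33 had the widest interval, from -0.04 to 0.56. On the lower side Mrpl19 and Mrpl42 stood at -0.18 and -0.21, with edgeR adjusted p-values of 0.277 and 0.317.

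**Figure D2:**
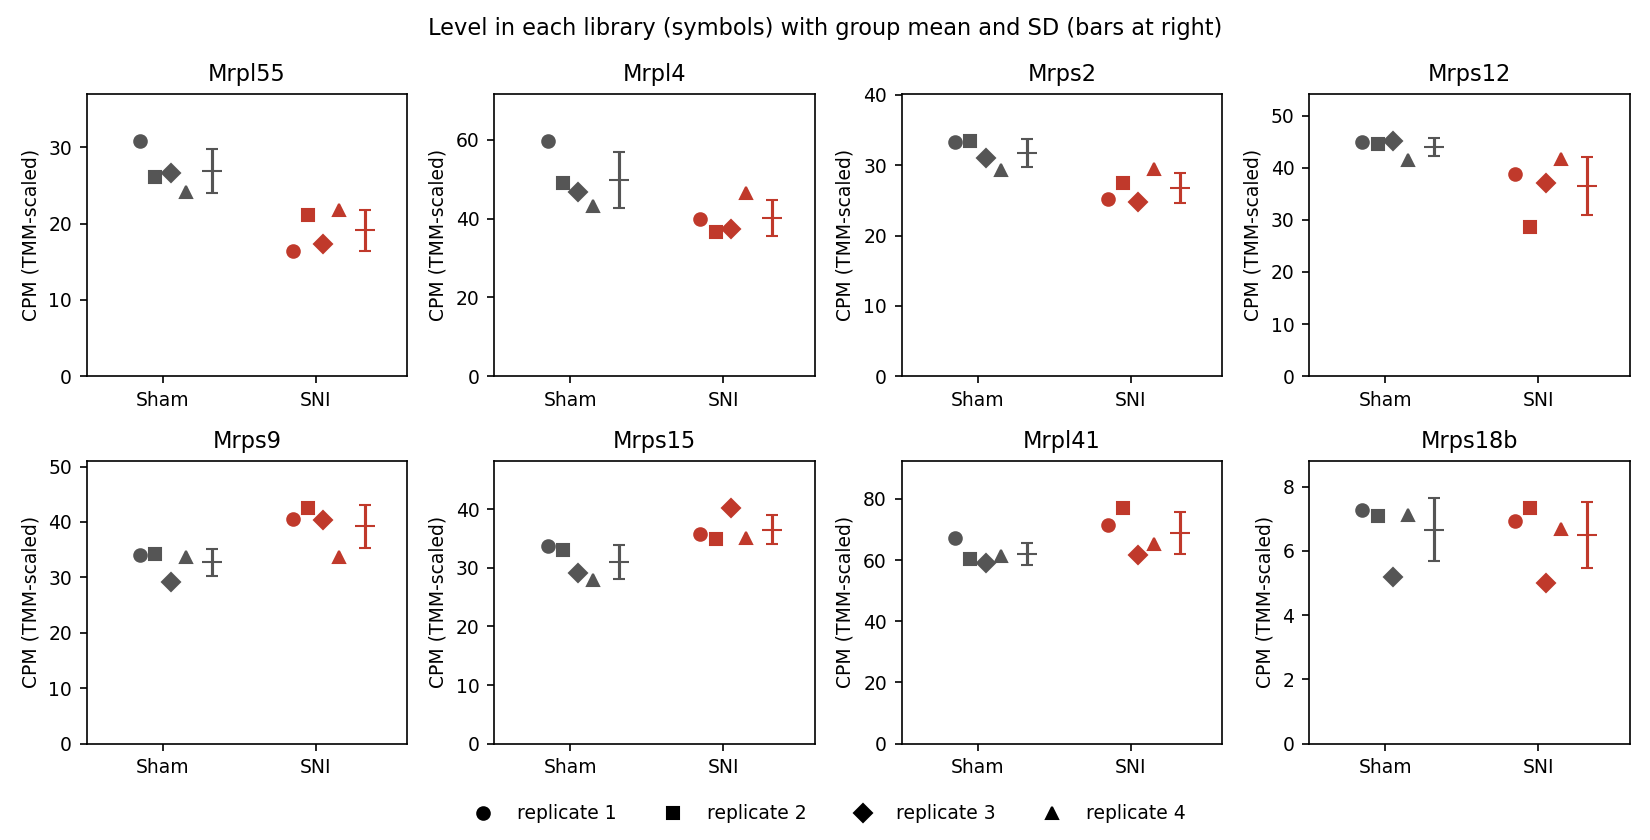
CPM of 8 mitochondrial ribosomal protein genes in each library (symbols give the replicate) with the group mean and SD at the right, all axes starting at 0. Mrpl55 and Mrps15 are the genes in which the Sham and SNI symbols do not overlap; Mrps18b shows low values in replicate 3 of both groups.

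Both subunits had medians near 0. Large-subunit genes had a median log2 fold change of -0.006, with 0 of 50 higher and 1 of 50 lower at the FDR of 0.05, and small-subunit genes had a median of 0.006, with 0 of 26 in either direction. Proteins with a bacterial counterpart had a median of 0.008 (0 higher and 1 lower of 46), and those without had -0.016 (0 of 30 in either direction). The ratio of summed large-subunit to summed small-subunit CPM was 2.17, 2.1, 2.13 and 2.15 in Sham and 2.09, 2.17, 2.08 and 2.13 in SNI. Its means, 2.13 ± 0.0302 and 2.12 ± 0.0382 (SD, n = 4 per group), differed by less than the spread within either group.

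Members with a particular role in the ribosome were described whatever their values, and 0 of the 8 that follow passed the threshold. Mrpl12 (bL12m) forms the stalk that recruits translation factors and also binds the mitochondrial RNA polymerase. Its level was 37.2 ± 1.73 in Sham against 35.7 ± 3.41 CPM in SNI (SD, n = 4 per group), and the 95% interval of its log2 fold change ran from -0.25 to 0.13. Mrpl45, which anchors the ribosome to the inner membrane where new respiratory subunits are inserted, was at 39.1 ± 2.81 and 38.8 ± 1.5 CPM, with an interval of -0.18 to 0.17. Mrpl44, a large-subunit protein with an RNase III fold, was at 24.3 ± 2.33 and 22.1 ± 0.813 CPM and had an interval of -0.34 to 0.07. For none of these genes did the interval reach 0.5 in size.

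The 3 paralogs of bacterial protein S18 take different places in the particle, Mrps18c and Mrps18b in the small subunit and Mrps18a in the large one. By family name only Mrps18c (bS18m) was counted above as having a bacterial counterpart, and Mrps18a (mL66) and Mrps18b (mS40) were not. Mrps18a had means of 45.9 ± 3.78 in Sham against 45.9 ± 1.82 CPM in SNI (SD, n = 4 per group). Mrps18c was at 15.2, 14.1, 13.0 and 13.9 CPM in Sham and 12.6, 20.7, 15.0 and 12.4 CPM in SNI, where replicate 2 alone stood above the rest. Mrps18b had 7.26, 7.1, 5.18 and 7.11 CPM in Sham and 6.94, 7.33, 4.99 and 6.69 CPM in SNI. Replicate 3 was the low library in both groups, and this gene's interval, -0.4 to 0.33, was among the widest of the set. An exon of Mrps18b overlaps an antisense gene and an exon of Mrps18c overlaps one on its own strand, so the reads of both are uncertain. The same limit holds for Mrpl12, Mrpl44 and Mrps30, each with an exon overlapping a gene on the opposite strand. Mrps22, a small-subunit protein without a bacterial counterpart, was at 19.2 ± 3.02 and 18.8 ± 1.87 CPM (log2 fold change -0.03). Mrps30 (mL65) was at 16.5 ± 1.96 and 17.9 ± 0.730 CPM (log2 fold change 0.12).

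Levels were compared between genes after division by exon length, since a longer transcript collects more reads. The mean level of a member was between 2.41 and 73.7 CPM per kb of exon, with a median of 14.1, against 5.4 over all tested genes. Mrpl41 (mL41) was the highest at 73.7 CPM per kb, followed by Mrps21 (56.1), Mrpl27 (52.1), Mrpl34 (47.3) and Mrps12 (38.8). At the other end stood Mrpl33 (2.71), Mrps30 (2.58) and Mrps35 (2.41). Both subunits had genes near the top and near the bottom of this order. The exon length used is the union of all annotated exons, from 607 bp in Mrpl34 to 8631 bp in Mrps35, and a gene with long, rarely used exons is understated by it. The order therefore partly follows this length. The 5 highest genes had 607 to 1040 bp of exon and the 3 lowest 6666 to 8631 bp. By CPM without division, Mrpl48 (72.4) and Mrpl3 (70.1) were highest, and Mrpl34 (28.7) lay below the members' median of 36.0. Exon length was 2533 bp at the median of the members and 4566 bp over all tested genes.

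**Figure D3:**
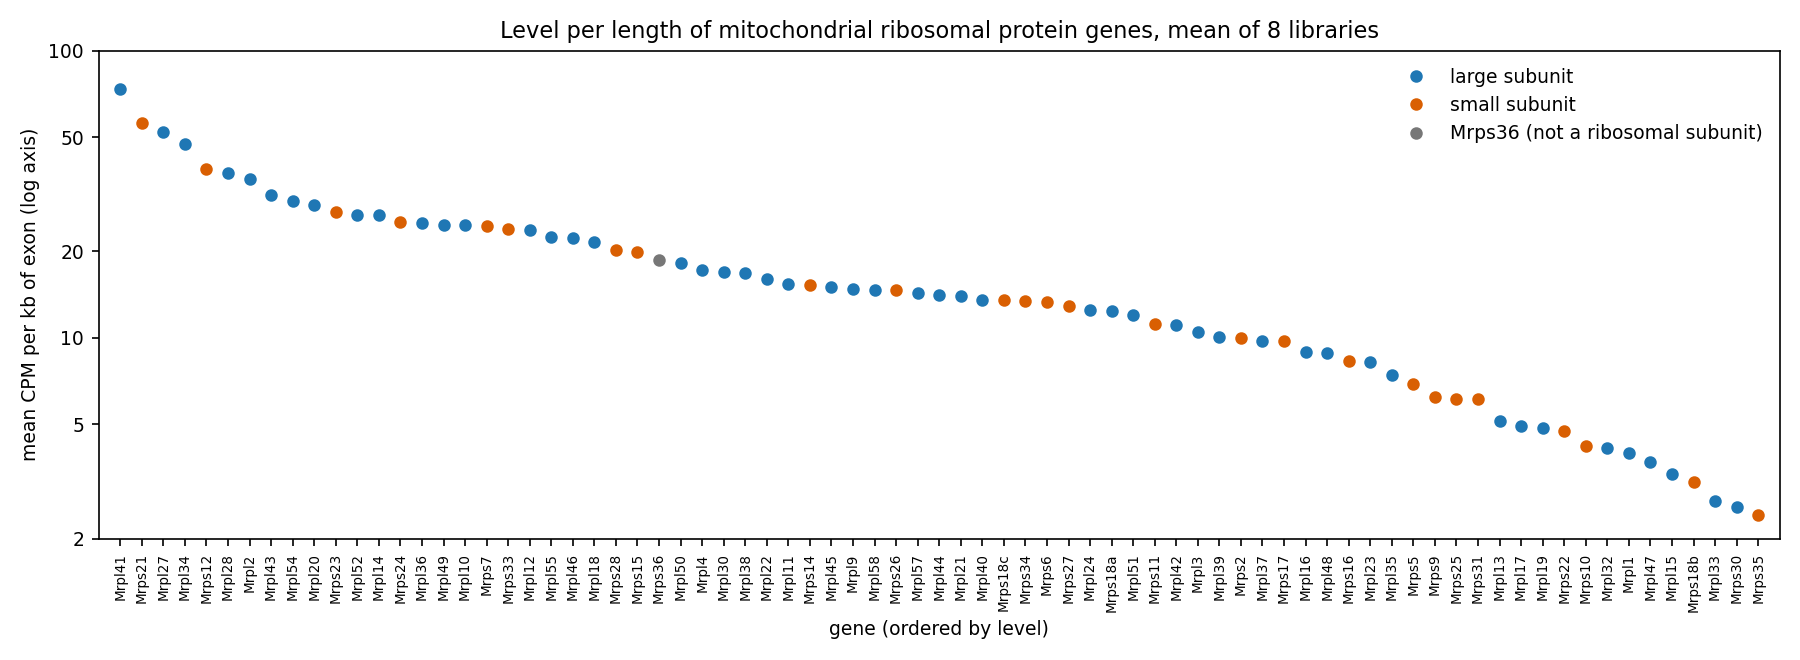
Mean level per length of each mitochondrial ribosomal protein gene over the 8 libraries, in CPM per kb of exon on a log axis, coloured by subunit. Mrpl41 stands highest at 73.7 and Mrps35 lowest at 2.41, and both subunits are spread over the whole range.

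Of the 5 most expressed members per length, 0 passed the threshold. Mrps12, described above, had the lowest p of them, with means of 44.0 ± 1.75 and 36.6 ± 5.54 CPM (SD, n = 4 per group, Sham first). Mrpl41 was at 67.3, 60.5, 59.0 and 61.4 CPM in Sham and 71.4, 77, 61.6 and 65.3 CPM in SNI, with overlapping groups and a log2 fold change of 0.15 ± 0.085 (SE). Mrps21 was at 42.5 ± 1.89 and 40.4 ± 4.32 CPM, Mrpl27 at 49.8 ± 3.27 and 52.7 ± 6.17 CPM, and Mrpl34 at 29.3 ± 2.55 and 28.0 ± 1.75 CPM (SD, n = 4 per group, Sham first). Their log2 fold changes were -0.07, 0.08 and -0.07. Exons of Mrpl27 overlap an annotated gene on the opposite strand, Eme1.

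The members' common level varied between libraries of the same group more than between the group means. For each gene, the log2 CPM in a library was taken relative to that gene's mean over all 8 libraries, and these values were averaged over the 77 genes. The average was 0.067, 0.055, -0.072 and -0.028 in Sham replicates 1 to 4 and -0.022, 0.071, -0.044 and -0.026 in SNI replicates 1 to 4. Libraries above 0 were Sham replicates 1 and 2 and SNI replicate 2, and the group ranges overlapped almost completely. SNI replicate 2 held the highest value of 28 of the 77 genes and Sham replicate 1 that of 15, while Sham replicate 3 held the lowest value of 23 genes and SNI replicate 3 that of 17. Summed over the members, the level was 2744 ± 110 in Sham against 2730 ± 87.1 CPM in SNI (SD, n = 4 per group). SNI replicate 2 was also the deepest library, and its average was positive after scaling to library size.

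The 77 genes lie on 17 chromosomes, at most 11 on any one, so they share no locus. A start within 1000 bp of the start of a protein-coding gene on the opposite strand, a head-to-head pair, was found for 33 of 77 members (42.9%) and for 2030 of 13799 tested protein-coding genes (14.7%). Several partners also serve the mitochondrion: Mrpl36 is paired with Ndufs6 and Mrpl47 with Ndufb5, both complex I subunits, Mrpl43 with Twnk, the mitochondrial DNA helicase, and Mrps12 with Sars2, the mitochondrial seryl-tRNA synthetase. Mrpl46 and Mrps11 are each other's partner, with starts 412 bp apart. Of 31 partners tested, 1 passed the FDR of 0.05, where 5.02% of all tested genes did, so the count is no result about partners. Mrpl46 and Mrps11, members themselves, are among the 31. The partner that passed was Zfp189, a zinc finger gene whose start lies 83 bp from that of Mrpl50. Zfp189 had 6.95 ± 1.3 in Sham against 10.7 ± 1.62 CPM in SNI (SD, n = 4 per group). Its log2 fold change was 0.62 (edgeR adjusted p = 0.0401) and that of Mrpl50 was -0.05. The call of Zfp189 was lost without Sham replicate 2, 3 or 4 or SNI replicate 2, 3 or 4, each left out alone (edgeR adjusted p = 0.0731 to 0.125), and with the replicate block (log2 fold change 0.63, adjusted p = 0.0623). With the striatal marker covariate the log2 fold change was 0.44 (edgeR adjusted p = 0.48), and it was 0.58 without SNI replicates 2 and 4 (0.167) and 0.51 without 2 and 3 (0.252). Zfp189 was picked out after its values were seen, and the difference between the pair's members was not tested.

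Promoter sequence was searched because genes for mitochondrial proteins are known to be regulated by the nuclear factors NRF-1, GABP (of the ETS family) and YY1. RefSeq promoters on GRCm38.p6, 250 bases before to 50 bases after the start, were found for 68 of the 77 members and for 10844 tested genes. Each motif was searched as exact letters on both strands. The NRF-1 motif, GCGCA and GCGC with any 1 base between them, was present in 13 of 68 members (19.1%) and in 9.89% of all promoters. The ETS motif CCGGAAG was present in 23 members (33.8%) and 16.7% of all promoters, and the YY1 motif AAGATGGC in 12 members (17.6%) and 4.34% of all. At least 1 of these 3 motifs was found in 40 members (58.8%), compared with 27.6% of all promoters. The TATA box TATAAA, searched beside them, was in 4 members (5.88%) and 6.92% of all promoters. No member had 2 different motifs that overlap, and median GC content was 58.2% in the members' promoters and 61.0% in all.

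The bases before the start are shown for 4 members, with a match in capitals: the gene that fell, and examples of promoters that hold a motif. Mrpl55 (chr11:59202236-59202485, plus strand) has none of the 4 motifs in this stretch. Mrps12 (chr7:28741822-28742071, minus strand) holds the YY1 motif on the strand opposite to the gene. Mrps21 (chr3:95871515-95871764, minus strand) holds the NRF-1 motif, also on the opposite strand. Mrpl57 (chr14:57825989-57826238, plus strand) holds the NRF-1 motif on its own strand. The last 3 were chosen after the search, as examples of a match, so their contrast with Mrpl55 was fixed by the choice. Of the 68 members searched, 40 held a motif of the 3 factors, so members without one, like Mrpl55, were not rare. Each of them also has the ETS motif in the searched window, but not wholly in the stretch shown. A match is a description of letters and no evidence of binding, and the absence of one says only that these letters are not in the window.
Mrpl55: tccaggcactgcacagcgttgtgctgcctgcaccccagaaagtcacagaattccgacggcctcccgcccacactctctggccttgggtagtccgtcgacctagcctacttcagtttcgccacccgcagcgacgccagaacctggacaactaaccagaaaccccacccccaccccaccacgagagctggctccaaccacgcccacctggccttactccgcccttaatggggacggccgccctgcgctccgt
Mrps12: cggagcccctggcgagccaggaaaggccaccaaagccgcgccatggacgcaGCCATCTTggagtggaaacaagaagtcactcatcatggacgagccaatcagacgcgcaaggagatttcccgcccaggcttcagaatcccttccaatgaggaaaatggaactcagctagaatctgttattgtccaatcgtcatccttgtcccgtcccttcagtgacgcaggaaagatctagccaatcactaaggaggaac
Mrps21: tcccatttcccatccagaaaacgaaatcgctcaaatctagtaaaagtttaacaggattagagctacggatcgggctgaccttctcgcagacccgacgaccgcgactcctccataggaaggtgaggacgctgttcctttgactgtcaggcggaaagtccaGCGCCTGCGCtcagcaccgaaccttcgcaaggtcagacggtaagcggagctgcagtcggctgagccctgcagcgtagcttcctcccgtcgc
Mrpl57: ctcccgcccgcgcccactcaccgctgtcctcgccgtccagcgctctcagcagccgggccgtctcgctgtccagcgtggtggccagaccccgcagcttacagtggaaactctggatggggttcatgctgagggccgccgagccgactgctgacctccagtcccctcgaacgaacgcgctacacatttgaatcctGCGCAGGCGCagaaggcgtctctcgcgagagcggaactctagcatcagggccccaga
The log2 fold changes of these genes were -0.27 for Mrps12, -0.23 for Mrpl57, -0.07 for Mrps21 and -0.49 for Mrpl55. Their shared sign is no result, since the genes were picked. Over the 77 members 37 values were above 0 and 40 below. Whether direction goes with a motif was not tested.

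The factors that bind such motifs, and others that control mitochondrial gene expression, were tested as a list of 12 genes. At the FDR of 0.05, 0 were higher and 1 was lower, where 2.15% and 2.87% of all tested genes were. The lower gene was Esrra, the nuclear receptor ERR-alpha, whose motif was not among those searched. Its level was 57.9, 61.8, 56.7 and 57.7 CPM in Sham and 50.5, 43.8, 43.0 and 52.2 CPM in SNI. The groups did not overlap, and the log2 fold change was -0.30 ± 0.084 (SE, edgeR adjusted p = 0.0479). The call was lost without any 1 Sham library and without SNI replicate 2 or 3 (edgeR adjusted p = 0.0741 to 0.142). It was also lost with the replicate block (log2 fold change -0.31, adjusted p = 0.0729), the striatal marker covariate (-0.29, adjusted p = 0.381), upper-quartile scaling (-0.28, adjusted p = 0.0558), library totals only (-0.26, adjusted p = 0.0797) and limma voom (-0.24, adjusted p = 0.0709). Leaving out SNI replicates 2 and 4 gave -0.32 (edgeR adjusted p = 0.0823), and leaving out SNI replicates 2 and 3 gave -0.19 (0.29). The sign was the same in all of these settings. Over the list, 4 of 12 log2 fold changes were above 0 and 8 below, and 4 genes had an unadjusted p under 0.05. Gabpb2 and Tfam had higher SNI means, with log2 fold changes of 0.34 and 0.19 (edgeR adjusted p = 0.151 and 0.213).

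The rest of the mitochondrial translation machinery gave no call. None of the 5 tested ribosome subunits without an Mrp symbol (among them Dap3 and Ptcd3), the 29 assembly factors, the 15 translation factors, the 20 mitochondrial aminoacyl-tRNA synthetase genes or the 20 genes of mitochondrial transcription and RNA handling passed the FDR of 0.05. Their median log2 fold changes were 0.05, -0.05, -0.03, -0.06 and 0.07 in that order, and 0, 1, 1, 0 and 4 of them had an unadjusted p under 0.05. Assembly factors, which help rRNA fold and proteins join, had values below 0 in 22 of 29 genes, as did translation factors in 12 of 15 and synthetase genes in 12 of 20. Genes of transcription and RNA handling were above 0 in 11 of 20, and over all tested genes 6652 of 13911 values were below 0. Tufm, the elongation factor that brings aminoacyl-tRNA to the ribosome, had the smallest p among the translation factors, with 61.3 ± 1.77 in Sham against 51.8 ± 5.52 CPM in SNI (SD, n = 4 per group). Its log2 fold change was -0.24 (edgeR adjusted p = 0.109). Without SNI replicate 4 the log2 fold change of Tufm was -0.32 (edgeR adjusted p = 0.0374). That library, at 60.0 CPM, was the only SNI library inside the Sham range. Leaving it out was therefore bound to enlarge the difference and lends the call no weight.

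The products and partners of mitochondrial translation were set beside the ribosome. Of the 79 nuclear-encoded subunits of oxidative phosphorylation, which assemble with the mitochondrially made proteins, 0 passed the FDR of 0.05 (5 had an unadjusted p under 0.05), and the median log2 fold change was 0.01. They summed to 13577 ± 477 in Sham against 13647 ± 520 CPM in SNI (SD, n = 4 per group), and their average per library was highest in SNI replicate 2 and lowest in Sham replicate 3, as for the ribosomal proteins. Of 13 mitochondrially encoded transcripts, 4 had a log2 fold change above 0 and 9 below, with a median of -0.03. They summed to 54720 ± 3341 in Sham against 52194 ± 9965 CPM in SNI (SD, n = 4 per group). Their average per library ran from -0.453 in SNI replicate 1 to 0.698 in SNI replicate 2. At the FDR of 0.05, 1 was higher and 0 were lower. The higher one was mt-Nd3, at 29.9, 33.7, 30.5 and 33.1 CPM in Sham and 33.1, 63.5, 58.2 and 45.9 CPM in SNI. SNI replicate 1 lay within the Sham range, and the log2 fold change was 0.66 (edgeR adjusted p = 0.0461). This call was lost whenever 1 library other than SNI replicate 1 was left out (edgeR adjusted p = 0.0609 to 0.15). It was also lost with the striatal marker covariate (log2 fold change 0.46, adjusted p = 0.488), limma voom (0.50, adjusted p = 0.0582), upper-quartile scaling (0.68, adjusted p = 0.0508) and the filter of 1 CPM in 4 libraries (0.66, adjusted p = 0.0503). Without SNI replicates 2 and 4 it was 0.52 (edgeR adjusted p = 0.181), and without 2 and 3 it was 0.31 (0.245).

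Cytosolic ribosomal protein genes are shown as the counterpart outside the mitochondrion. Of 80 tested cytosolic ribosomal protein genes, 28 were higher and 1 was lower in SNI at the FDR of 0.05, and the median log2 fold change was 0.38, with 77 of 80 values above 0. Rpl11, a large-subunit protein, had 234 ± 17.4 CPM in Sham and rose to 329 ± 45.1 (SD, n = 4 per group). Rpl34, also of the large subunit, had 106 ± 13.9 CPM in Sham and fell to 67.4 ± 11.3. The log2 fold changes were 0.49 and -0.65, with edgeR adjusted p-values of 0.0109 and 0.00753. Neither passed with the striatal marker covariate, where Rpl11 was at 0.43 (edgeR adjusted p = 0.219) and Rpl34 at -0.65 (0.136). The call of Rpl11 was also lost without SNI replicates 2 and 3 (0.32, adjusted p = 0.068), and that of Rpl34 without SNI replicates 2 and 4 (-0.56, adjusted p = 0.0957). Per library, the average of the cytosolic genes was highest in SNI replicates 3 and 2 (0.367 and 0.277) and lowest in Sham replicate 3 (-0.334), whereas the mitochondrial ribosomal proteins averaged -0.044, 0.071 and -0.072 in the same libraries. The number of higher cytosolic genes depended on single libraries. With Sham replicate 1, 2 or 3 left out it was 8, 14 and 1, and with SNI replicate 1, 2 or 3 left out it was 52, 10 and 2. Replicates 2 and 3 of SNI were also the lowest in excitatory neuron markers (-0.306 and -0.3 on the same scale) and the highest in astrocyte markers (0.146 and 0.292), and the part of cell makeup in the result was not tested. The difference between the cytosolic and the mitochondrial genes was not tested either. Many cytosolic ribosomal protein genes have near-identical pseudogenes, so their counts are uncertain.

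**Figure D4:**
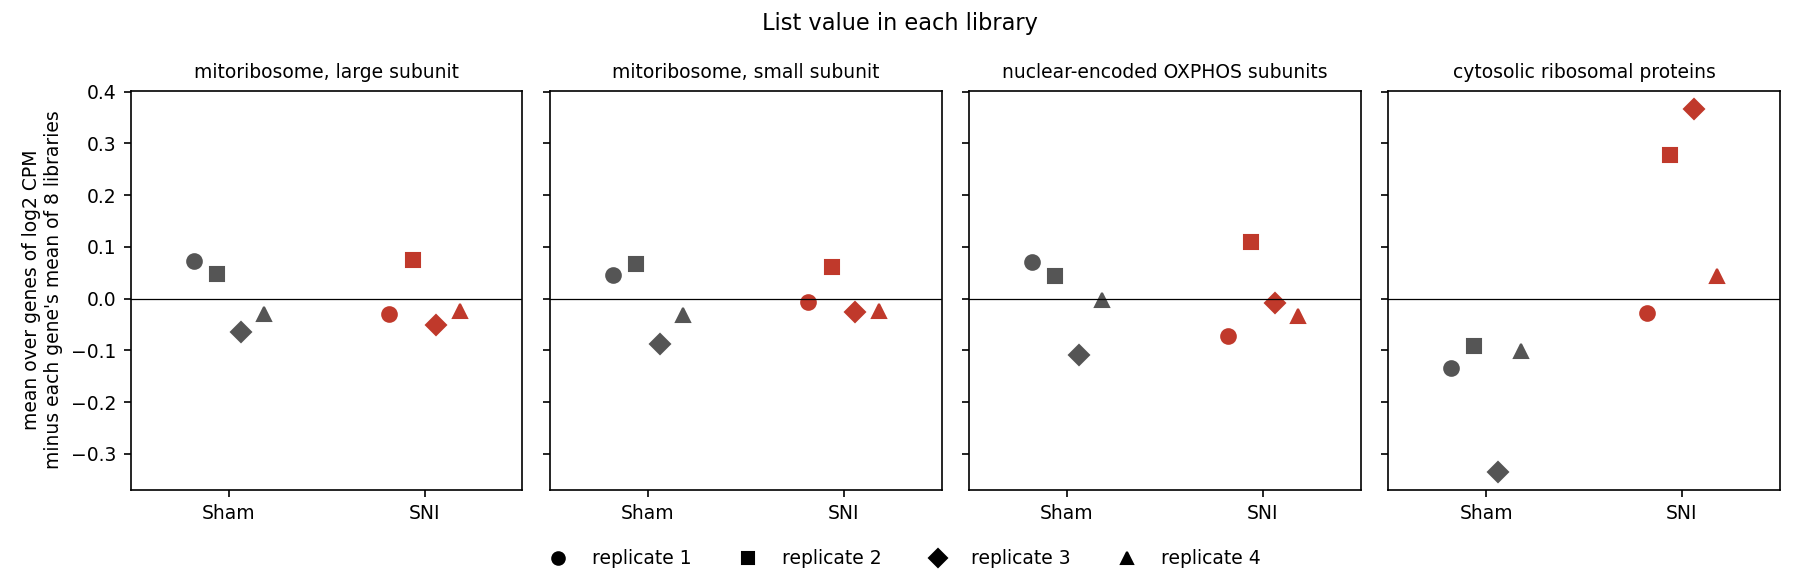
Average over the genes of a list of log2 CPM minus each gene's mean over the 8 libraries, for the mitochondrial large and small subunits, the nuclear-encoded oxidative phosphorylation subunits (OXPHOS) and the cytosolic ribosomal proteins; each symbol is 1 library. The first 3 lists stay between -0.109 and 0.11 with overlapping groups, and the cytosolic list reaches from -0.334 to 0.367 with every SNI library above every Sham library.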

How the data were processed

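The deposited table holds whole-number read counts per gene, keyed by symbol; per the submitters' processing notes, fastp, HISAT2 and StringTie were used on GRCm38. The annotation, the step to counts and its use of strand are not given in the sources used here, so genes with overlapping exons (32 of 77 members) or named pseudogenes (3 of 77) are uncertain. Of 14765 symbols, 14661 matched GENCODE M21, which gave coordinates, exon lengths and neighbours.

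The counts were tested with edgeR 4.0.16 in R 4.3.3 (filterByExpr, 13911 genes kept; TMM scaling; robust quasi-likelihood F-test, two-sided, group as the only term; Benjamini-Hochberg adjustment over all genes; FDR 0.05). The standard error is the log2 fold change divided by the square root of F. CPM are TMM-scaled; list averages use a prior count of 2. Biological variation was 12.1%. The method was tested on simulated data. Counts of 75 or more per member and library limit precision least for the abundant members.

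Members and lists were chosen with earlier results of these data known. Named are members past the threshold, the 8 of smallest p in each direction, the 5 highest and 3 lowest per length, members fixed for their role, and up to 3 genes at FDR 0.05 per further list (not all are shown). Zfp189 and Tufm, and all promoters shown except that of Mrpl55, were chosen after their values were seen, outside that rule: by order of p, Mrpl4 (without a promoter entry), Mrps9 and Mrps2 would have come before Mrps12. Requiring a RefSeq start within 1000 bp of the annotated start left 64 members, of which 56.2% held a motif of the 3 factors (28.4% of 9894 promoters). Alternatives were other scalings and filters, DESeq2 1.42.0, limma 3.58.1 voom, a replicate block, GC and length offsets, a striatal marker covariate, other thresholds and left-out libraries.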

Additional observations from a re-analysis of the deposited data

Results flagged for a closer look

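In 68 groups of 4 libraries looked at for the named genes, 5 held 1 library far from the other 3, where chance alone flags about 1 in 20 groups. Sham replicate 3 was the low library in 3 of them, at 29.1 CPM for Mrps9, 25.5 CPM for Mrpl34 and 5.18 CPM for Mrps18b. SNI replicate 3 stood above the other SNI libraries for Mrps15, at 40.2 CPM. SNI replicate 4 stood above the other SNI libraries for the elongation factor gene Tufm, at 60.0 CPM, inside the Sham range of 58.9 to 62.9 CPM.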

How the results depend on the processing

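Over 21 alternatives, no mitochondrial ribosomal protein gene was higher in SNI at the FDR of 0.05, and the median log2 fold change of the 77 genes stayed between -0.041 (striatal marker covariate) and 0.045 (library totals only). Mrpl55 was the 1 lower member in the analysis as reported. The number of lower members was 0 without SNI replicates 2 and 3, 0 at an FDR of 0.01, and 0 to 1 with single libraries left out. The 698 genes called over the whole table became 1165 with DESeq2 (511 higher, 654 lower), 30 with the striatal covariate, 438 without SNI replicates 2 and 4, 178 when replicates 2 and 3 were left out, 1279 at an FDR of 0.1, 155 at 0.01, and 258 to 858 with single libraries left out. The split of 299 higher and 399 lower was 446 and 276 with library totals only. Higher cytosolic ribosomal protein genes, 28 as reported, numbered 52 with DESeq2, 15 with the replicate block, 1 with the striatal covariate, 12 without SNI replicates 2 and 4, 0 when replicates 2 and 3 were left out, and 1 to 52 with single libraries left out. Those counts under alternatives were added after seeing the data. Fits with the same number of libraries went both ways. Without SNI replicate 1 there were 858 calls and 52 higher cytosolic genes, and without SNI replicate 3 there were 297 and 2. The cause of the changes under alternatives was not tested.

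Replicate numbers are shared between the groups, and the labels do not say if they pair libraries. Same-numbered libraries did not deviate together (correlations of -0.148 to -0.0056). Deviations from a mean of only 4 libraries per group cannot decide whether the numbers mark a pairing. The fit with the replicate number as a block called 518 genes, with 0 higher and 1 lower member (Mrpl55, adjusted p = 0.0454).

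Of 588 values of the 28 named members under alternatives, 42 changed sign, all from 8 genes. With the striatal covariate the log2 fold change was -0.05 for Mrpl33, -0.02 for Mrpl27, 0.07 for Mrps35 and -0.1 for Mrps18c. With upper-quartile scaling it was 0.02 for Mrps35, Mrpl45 and Mrps18a. With library totals only it was 0.05 for Mrps35, 0.04 for Mrpl45 and Mrps18a, 0.01 for Mrps18b and 0.02 for Mrps22. For Mrps35 it was also 0.0001 with a filter of 1 CPM, 0.0028 with the replicate block and 0.01 without SNI replicates 2 and 4. With voom it was 0.02 for Mrps35 and Mrps18a and -0.06 for Mrps18c. The GC offset gave 0.03 for Mrps18a, and the length offset 0.01 for Mrps35 and Mrps18a. Without SNI replicates 2 and 4 Mrps18c was at -0.02, and without replicates 2 and 3 at -0.17, with Mrps35 and Mrps18a at 0.02 and Mrps18b at 0.03. With single libraries left out the values ran from -0.04 to 0.07 (Mrps35), -0.04 to 0.04 (Mrpl45), -0.05 to 0.04 (Mrps18a), -0.13 to 0.07 (Mrps18b), -0.08 to 0.2 (Mrps18c) and -0.1 to 0.04 (Mrps22). The cause was not tested.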
